A study of Arabidopsis thaliana with 8 samples.

Results

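The WRKY genes encode one of the large families of plant transcription factors, and the small RNA counted at their loci was compared between WT plantlets and plantlets that lack URT1, XRN4 or both. The genes were listed by locus code as members of the family, with earlier results of these data known, and they are not the whole family. A further 17 genes with a WRKY domain were kept as a separate list, of which 12 were tested and none was called. Of the 55 WRKY genes considered, 52 had counts among the 24859 mRNA loci of the table, and 50 were among the 24722 loci with enough reads to be tested. WRKY75, WRKY38 and WRKY51 were not analysed here. WRKY61 and WRKY12 had counts but too few reads for the test.

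Each of the 4 genotypes was represented by 2 biological replicates, which makes 8 small RNA libraries. All plants were *Arabidopsis thaliana* of the Col-0 accession, sampled as whole plantlets 24 days old and raised in vitro, with days of 12 h at 22 °C and nights of 12 h at 18 °C. WT carried no mutation, *urt1-1* and *xrn4-3* each carried a single T-DNA insertion line's mutation, and *urt1-1 xrn4-3* carried both. URT1 is the terminal uridylyltransferase that adds uridines to the shortened poly(A) tails of mRNAs. XRN4 is the cytosolic exoribonuclease that degrades mRNAs from their 5′ end once the cap has been removed. Each gene was represented by 1 mutant allele, so that the loss of the gene and any other change in that line cannot be told apart.

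WRKY proteins bind W-box elements in promoters through a domain named after its conserved heptapeptide, which is followed by a zinc finger. The family is sorted into subgroups: I with a pair of such domains, IIa to IIe with 1 domain and the same type of zinc finger, and III with 1 domain and another type. Many members are switched on within minutes of pathogen recognition, wounding or nutrient stress, and several act as activators or repressors of defence, of leaf senescence and of phosphate supply. Plant mRNAs that escape normal decay can be copied into double-stranded RNA and cut by Dicer-like enzymes into small interfering RNAs (siRNAs). The comparison between genotypes asks whether small RNA from WRKY mRNA loci changes when uridylation, 5′ to 3′ decay or both are lost. The reads carry no statement of mRNA level, and reads of all sizes kept by the authors, 14 to 30 nt, were counted together.

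The stretch that names the family is shown for the 12 loci that gained small RNA in *urt1-1 xrn4-3*, because the members share this stretch and small RNA reads are short enough to fall inside it. Each line gives 45 bases of coding sequence of the RefSeq TAIR10.1 genome, 5′ to 3′ on the coding strand, and the capitals mark the 21 bases that encode the heptapeptide. For genes with a pair of domains, such as WRKY33, the C-terminal domain was used here and in the comparisons that follow.
WRKY39 (chr3:1266779-1266823, minus strand): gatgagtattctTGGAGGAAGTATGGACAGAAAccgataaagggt
WRKY17 (chr2:10437958-10438002, minus strand): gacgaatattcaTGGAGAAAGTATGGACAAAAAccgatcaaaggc
WRKY11 (chr4:15290347-15290391, minus strand): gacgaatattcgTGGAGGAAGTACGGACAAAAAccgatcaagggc
WRKY7 (chr4:12572875-12572919, plus strand): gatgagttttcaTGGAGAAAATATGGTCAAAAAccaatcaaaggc
WRKY69 (chr3:21715491-21715535, plus strand): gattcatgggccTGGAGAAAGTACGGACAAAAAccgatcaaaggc
WRKY29 (chr4:12292479-12292523, plus strand): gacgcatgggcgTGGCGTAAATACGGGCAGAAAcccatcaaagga
WRKY27 (chr5:21411571-21411615, plus strand): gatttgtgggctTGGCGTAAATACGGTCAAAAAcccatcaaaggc
WRKY45 (chr3:326920-326964, minus strand): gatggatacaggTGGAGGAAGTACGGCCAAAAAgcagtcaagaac
WRKY57 (chr1:26056583-26056627, minus strand): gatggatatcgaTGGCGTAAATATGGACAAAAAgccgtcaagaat
WRKY6 (chr1:23017689-23017733, minus strand): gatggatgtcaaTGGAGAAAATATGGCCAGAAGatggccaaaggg
WRKY53 (chr4:12393122-12393166, minus strand): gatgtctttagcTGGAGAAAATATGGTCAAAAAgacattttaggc
WRKY33 (chr2:16109970-16110014, plus strand): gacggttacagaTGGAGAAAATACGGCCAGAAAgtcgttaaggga

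Among these 12 loci, 66 pairs can be formed, and 1 pair, WRKY53 and WRKY7, carried the same 21 bases. The median number of mismatches over the 21 bases was 4 and the highest was 6. Over the 45 bases the fewest mismatches were 4, between WRKY11 and WRKY17. The coding sequences encoded 2 heptapeptides in each of the 10 genes of subgroup I and 1 in each of the other 45 genes. For 18 of the 55 genes, the 21 bases occurred unchanged in another of the genes. Over the whole gene, introns included, sharing of exact 21-nt windows was low. The median share of a WRKY gene's windows that also occurred elsewhere in the genome, on either strand, was 1.03%. The heptapeptide stretch was not left out, and reads were aligned with 1 mismatch allowed, which exact windows do not cover. The highest share among the 12 loci was 3.62% (WRKY27), and the highest in the family was 12.6% (WRKY40). WRKY11 and WRKY17 shared more windows with other members than any other of the 12, 45 and 46 windows. Which members shared them was not counted, so a part of the reads counted at either may belong to another member.

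The libraries held between 6045353 and 30064224 reads on mRNA loci, and levels are given as CPM, the reads of a locus per 1000000 reads of the library after correction for composition by the TMM factor. Differences between genotypes are log2 fold changes from one negative binomial model of all 8 libraries with their standard errors (SE), and a locus was called raised or lowered when the likelihood ratio test gave a Benjamini-Hochberg adjusted p under 0.05 over all 24722 loci. The biological coefficient of variation of the model was 0.325. Small RNA at the mutated genes themselves did not check the labels, because an insertion need not remove it. At URT1 the WT libraries held 10.2 and 15.7 CPM, *urt1-1* 5.93 and 8.04, *xrn4-3* 14 and 271, and *urt1-1 xrn4-3* 9.19 and 5.94. At XRN4 all 8 libraries lay between 6.25 and 13.0 CPM. Replicate 2 of *xrn4-3* stood apart at URT1 and also had the highest TMM factor (1.23), and WRKY results that rest on this library are given with and without it.

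In WT, small RNA at WRKY loci was sparse and uneven (plot of WT levels per kb of locus). WRKY41, which acts in defence and in seed dormancy, had the highest level with 49.6 and 39.6 CPM per kb in replicates 1 and 2. WRKY65 followed with 12.2 and 21.4 CPM per kb and WRKY42, a regulator of phosphate transport, with 12.5 and 10.4. WRKY41 therefore lay above every other member in both libraries, whereas WRKY65 and WRKY42 overlapped. The next ranks were held by WRKY25, WRKY21, WRKY3, WRKY18, WRKY15, WRKY11 and WRKY22, from 9.46 CPM per kb for WRKY25 to 3.52 for WRKY22 as means of the 2 libraries. The libraries of WRKY18 differed most within this series, with 8.99 and 2.39 CPM per kb. WRKY74 had the lowest mean of the tested loci, 0.25 CPM per kb.

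**Figure D1:**
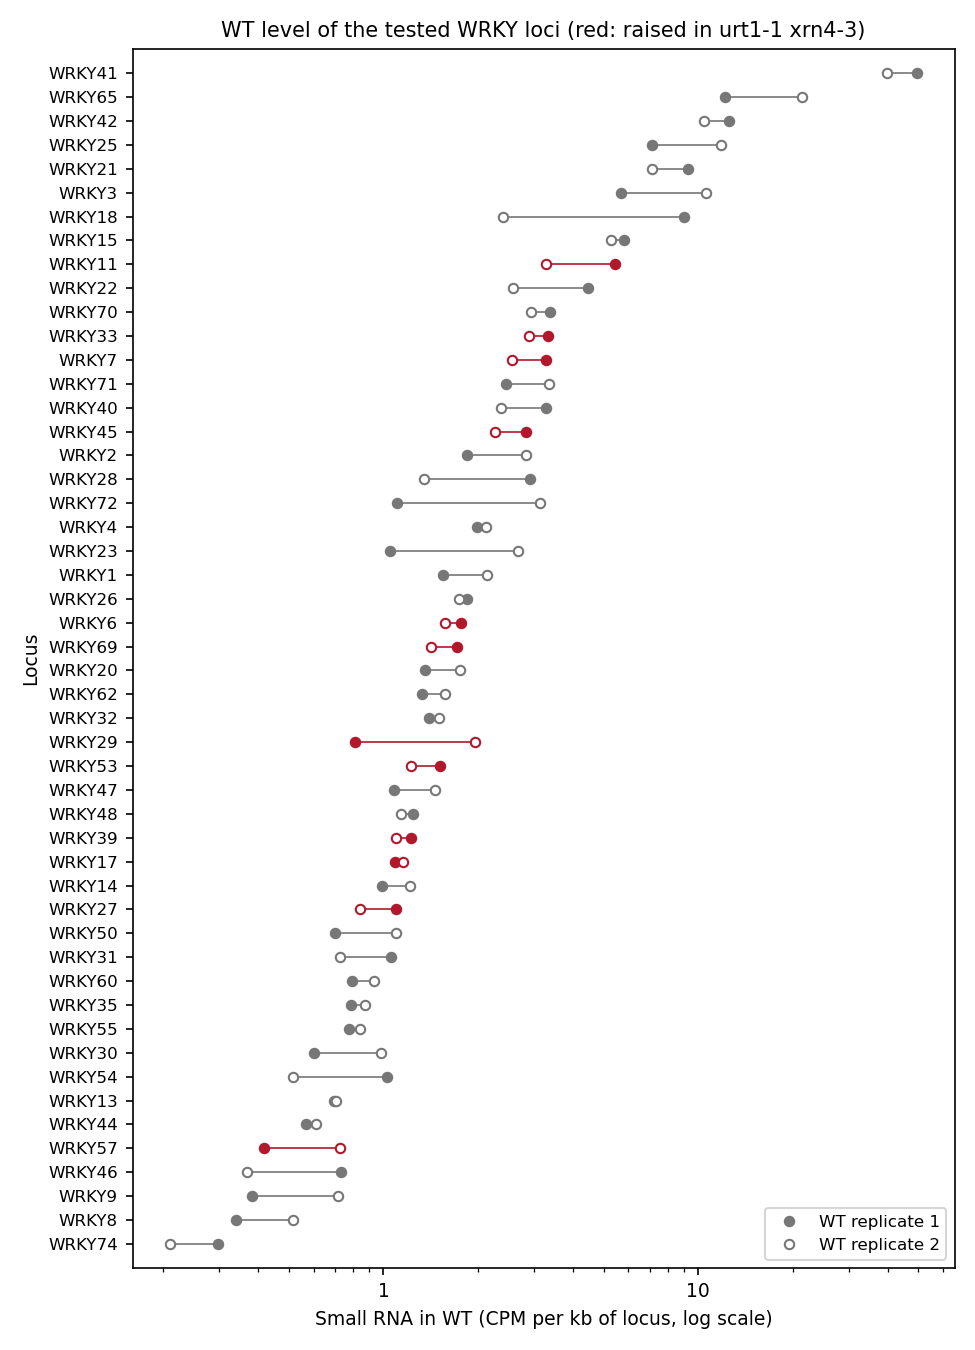
Small RNA level in WT of the 50 tested WRKY loci, as CPM per kb of locus on a log axis. Filled points are WT replicate 1 and open points WT replicate 2, and red marks the 12 loci raised in *urt1-1 xrn4-3*, of which only WRKY11 lies among the 10 highest.

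Summed over the 52 loci, WRKY small RNA came to 328 and 330 CPM in WT, 329 and 346 in *urt1-1*, 388 and 415 in *xrn4-3*, and 444 and 432 in *urt1-1 xrn4-3*. The libraries without XRN4 thus lay above those with XRN4, and on this scale both *urt1-1 xrn4-3* libraries lay above both *xrn4-3* libraries. With 2 libraries a group the smallest p an exact two-sided permutation test can give is 0.333, so no test of these sums is given. As a plain share of the reads on mRNA loci, without the TMM factor, WRKY reads made up 0.0303% and 0.0320% in WT, 0.0328% and 0.0313% in *urt1-1*, 0.0403% and 0.0509% in *xrn4-3*, and 0.0393% and 0.0473% in *urt1-1 xrn4-3*. The libraries without XRN4 were again the higher ones, but the double mutant overlapped *xrn4-3*, so the order of these genotypes depended on the scaling. In whole plantlets, more small RNA per cell and more cells that make it cannot be told apart.

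In *urt1-1 xrn4-3*, 12 of the 50 tested WRKY loci were raised against WT, which is 24.0%, beside 10% of all loci tested. The 50 were listed with earlier results of these data known, and the share holds for them alone. Of the 12 tested genes in the separate list of other WRKY genes, 0 were raised. They were WRKY39, WRKY17, WRKY45, WRKY69, WRKY57, WRKY29, WRKY11, WRKY6, WRKY27, WRKY53, WRKY33 and WRKY7, in falling order of fold change, from 10.8-fold to 2.25-fold. No WRKY locus was lowered, beside 1.05% of all loci. The number of lowered loci at an unadjusted p under 0.05 was 0 by the likelihood ratio test, 0 by the quasi-likelihood test and 1 by DESeq2. How many of all loci passed this unadjusted threshold was not counted, so such counts, here and below, have no background beside them. Other tests raised fewer loci, WRKY39, WRKY17, WRKY45, WRKY11 and WRKY6 by the quasi-likelihood test (5 loci, beside 7.31% of all loci) and these with WRKY57 and WRKY69 by DESeq2 (7 loci, beside 6.88%). The median log2 fold change over the 50 loci was 0.41, against 0.01 over all loci. Above 0 were 35 of the 50, beside 12482 of the 24722 loci tested. Both *urt1-1 xrn4-3* libraries exceeded both WT libraries at 22 of the 50 loci (44.0%), beside 30.1% of all loci.

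**Figure D2:**
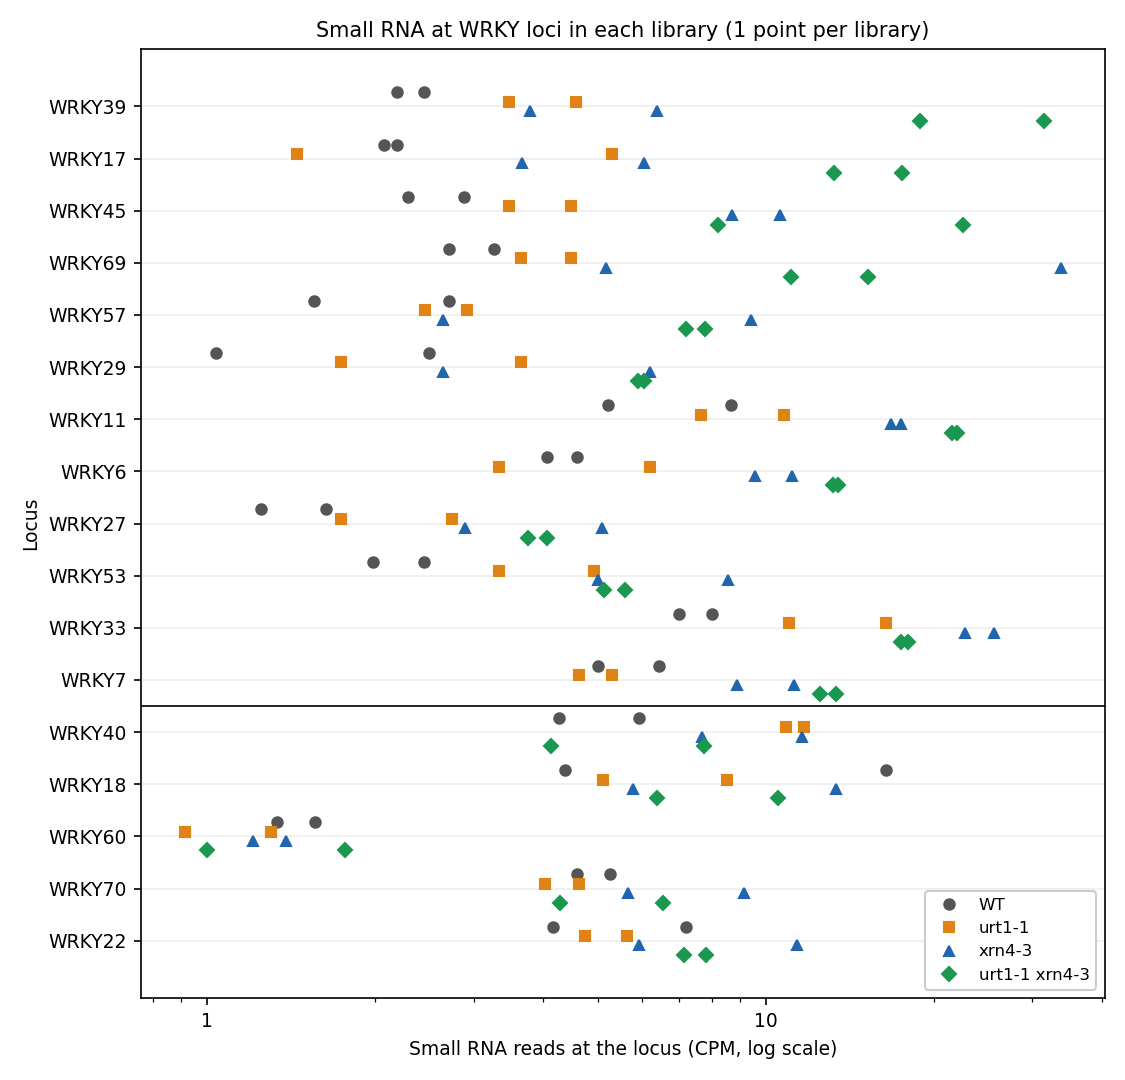
Small RNA at 17 WRKY loci in CPM on a log axis, 1 point per library, with genotype given by colour and shape. The 12 loci above the line were raised in *urt1-1 xrn4-3* against WT, and at each of them both green points lie to the right of both grey points. The 5 loci under the line were not called and their WT and *urt1-1 xrn4-3* points overlap.

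Subgroup IId, whose members also carry a calmodulin-binding stretch, held 4 of the 12 raised loci, WRKY39, WRKY17, WRKY11 and WRKY7. It had 7 loci tested, and 10% of all loci were raised. All 7 had a log2 fold change above 0, with a median of 1.37. The medians of the other subgroups were 0.28 (I), -0.12 (IIa), 0.11 (IIb), 0.44 (IIc), 0.79 (IIe) and -0.23 (III). The subgroups are small, and differences between them were not tested. WRKY39 (AT3G04670), known for its role in the heat stress response, lies at chromosome 3, 1266295 to 1268287, minus strand, in the TAIR10 positions of the table. Its small RNA was at 2.44 and 2.19 CPM in WT, 3.47 and 4.57 in *urt1-1*, 3.78 and 6.39 in *xrn4-3*, and 18.8 and 31.5 in *urt1-1 xrn4-3*. Both double mutant libraries stood far above the other 6, and the groups WT, single mutants and double mutant did not overlap. The log2 fold change against WT was 3.44 (SE 0.46, adjusted p = 4.5e-10). WRKY39 also differed from each single mutant, by 2.29 (SE 0.44, adjusted p = 0.00023) against *xrn4-3* and by 2.65 (SE 0.47, adjusted p = 3.2e-06) against *urt1-1*. These calls did not depend on any 1 library, since leaving out each library in turn gave 3.01 to 3.66 against WT, 1.87 to 2.73 against *xrn4-3* and 2.24 to 2.87 against *urt1-1*, all called.

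WRKY17 (AT2G24570, chromosome 2, 10437398 to 10439298, minus strand) and its close relative WRKY11 are negative regulators of basal resistance to *Pseudomonas syringae*. WRKY17 was at 2.07 and 2.19 CPM in WT, 1.45 and 5.30 in *urt1-1*, 3.66 and 6.04 in *xrn4-3*, and 13.3 and 17.5 in *urt1-1 xrn4-3*. As at WRKY39, the double mutant libraries were the highest, while the *urt1-1* libraries fell on either side of WT. WRKY17 rose by 2.85 on the log2 scale (SE 0.51, adjusted p = 3.8e-06), and this call was kept whichever library was left out. The difference between *urt1-1 xrn4-3* and *xrn4-3* was 1.66 (SE 0.49, adjusted p = 0.045), a call lost without either WT library, *xrn4-3* replicate 1 or either double mutant library (1.35 to 2.07 over all leave-outs). The difference to *urt1-1* was 2.22 (SE 0.52, adjusted p = 0.00076), lost without *urt1-1* replicate 1 (1.54 to 3.41).

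WRKY11 (AT4G31550, chromosome 4, 15289947 to 15291539, minus strand) was at 8.67 and 5.21 CPM in WT, 7.67 and 10.8 in *urt1-1*, 16.8 and 17.4 in *xrn4-3*, and 22.0 and 21.6 in *urt1-1 xrn4-3*. Its libraries formed steps, with both *xrn4-3* libraries above WT and *urt1-1*, and both double mutant libraries above those. The log2 fold change in *urt1-1 xrn4-3* was 1.64 (SE 0.43, adjusted p = 0.0027), and that in *xrn4-3*, 1.29 (SE 0.43, adjusted p = 0.06), was not called. WRKY7 (AT4G24240, chromosome 4, 12571766 to 12573725, plus strand), a calmodulin-binding repressor of defence, was at 6.44 and 5.0 CPM in WT, 4.63 and 5.30 in *urt1-1*, 11.2 and 8.89 in *xrn4-3*, and 12.5 and 13.4 in *urt1-1 xrn4-3*. It had the smallest change of the 12, with 1.17 (SE 0.38, adjusted p = 0.024), although the double mutant libraries did not overlap any other. The call of WRKY11 was lost without WT replicate 2 or *urt1-1 xrn4-3* replicate 1 (1.33 to 2.06), and that of WRKY7 without any 1 of the 4 WT and double mutant libraries (1.00 to 1.37). Of the other members of IId, WRKY15 had 1.00 (SE 0.38, adjusted p = 0.075), WRKY74 1.37 (SE 0.79, adjusted p = 0.29) on at most 50 reads a library, and WRKY21 0.39 (SE 0.48, adjusted p = 0.7).

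In subgroup IIe, 3 of 7 loci were raised in *urt1-1 xrn4-3*, beside 10% of all loci. These were WRKY69, WRKY29 and WRKY27, and the median log2 fold change of the subgroup was 0.79. WRKY69 (AT3G58710, chromosome 3, 21715007 to 21716916, plus strand) was at 3.3 and 2.71 CPM in WT, 4.48 and 3.65 in *urt1-1*, 5.17 and 33.7 in *xrn4-3*, and 11.1 and 15.2 in *urt1-1 xrn4-3*. The highest value came from *xrn4-3* replicate 2, the library that stood apart, and the 2 libraries of *xrn4-3* lay on either side of the double mutant. The log2 fold change was 2.14 (SE 0.66, adjusted p = 0.021) in *urt1-1 xrn4-3* and 2.70 (SE 0.66, adjusted p = 0.0045) in *xrn4-3*. Without *xrn4-3* replicate 2 the latter was 0.78 and not called.

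WRKY29 and WRKY22, which act below the flagellin receptor FLS2 and its MAP kinase cascade, differed in call. WRKY29 (AT4G23550, chromosome 4, 12291820 to 12293096, plus strand) was at 1.04 and 2.50 CPM in WT, 1.74 and 3.65 in *urt1-1*, 2.65 and 6.21 in *xrn4-3*, and 6.05 and 5.91 in *urt1-1 xrn4-3*. Both double mutant libraries lay above WT and *urt1-1* but within the range of *xrn4-3*, and the log2 fold change against WT was 1.78 (SE 0.55, adjusted p = 0.016). WRKY22 (AT4G01250) was at 7.19 and 4.17 CPM in WT, 5.64 and 4.75 in *urt1-1*, 5.93 and 11.4 in *xrn4-3*, and 7.13 and 7.82 in *urt1-1 xrn4-3*. Its WT and double mutant libraries overlapped, and its log2 fold change of 0.39 had a 95% interval from -0.47 to 1.25. WRKY27 (AT5G52830, chromosome 5, 21410852 to 21412340, plus strand), which affects wilting caused by *Ralstonia solanacearum*, was at 1.63 and 1.25 CPM in WT, 1.74 and 2.74 in *urt1-1*, 2.90 and 5.09 in *xrn4-3*, and 3.75 and 4.06 in *urt1-1 xrn4-3*. All 4 libraries without XRN4 lay above all 4 with it, and the log2 fold change was 1.42 (SE 0.46, adjusted p = 0.022) in *urt1-1 xrn4-3* and 1.47 (SE 0.48, adjusted p = 0.044) in *xrn4-3*. The double mutant calls of WRKY69 and WRKY27 were lost without any 1 of the WT and double mutant libraries (1.89 to 2.28 and 1.26 to 1.64), and that of WRKY29 without WT replicate 1 or either double mutant library (1.25 to 2.52).

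Subgroup IIc held 2 raised loci of 9 tested, beside 10% of all loci. WRKY45 (AT3G01970, chromosome 3, 326397 to 327412, minus strand), an activator of the phosphate transporter gene PHT1;1, was at 2.89 and 2.29 CPM in WT, 4.48 and 3.47 in *urt1-1*, 10.6 and 8.72 in *xrn4-3*, and 22.5 and 8.22 in *urt1-1 xrn4-3*. The libraries without XRN4 were all above those with it, and 1 double mutant library lay above and 1 below both *xrn4-3* libraries. WRKY45 rose by 2.55 on the log2 scale (SE 0.51, adjusted p = 5e-05) in *urt1-1 xrn4-3*, a call kept in every leave-out (1.55 to 3.10), and by 1.88 (SE 0.52, adjusted p = 0.012) in *xrn4-3*. WRKY57 (AT1G69310, chromosome 1, 26054308 to 26058035, minus strand), a factor of drought tolerance and leaf senescence, was at 1.56 and 2.71 CPM in WT, 2.46 and 2.92 in *urt1-1*, 2.65 and 9.41 in *xrn4-3*, and 7.2 and 7.79 in *urt1-1 xrn4-3*. The double mutant libraries agreed closely, whereas of *xrn4-3* only replicate 2 stood above WT. The log2 fold change was 1.83 (SE 0.55, adjusted p = 0.014) in *urt1-1 xrn4-3*, lost without WT replicate 1 or either double mutant library (1.47 to 2.26), and 1.53 (SE 0.56, adjusted p = 0.11) in *xrn4-3*. Without *xrn4-3* replicate 2 the *xrn4-3* value of WRKY57 was 0.34 (SE 0.56).

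WRKY6 (AT1G62300, chromosome 1, 23016683 to 23019279, minus strand) was the raised member of subgroup IIb, with 6 loci tested, beside 10% of all loci. It acts in senescence and represses the phosphate exporter gene PHO1. Its small RNA was at 4.59 and 4.06 CPM in WT, 3.33 and 6.21 in *urt1-1*, 9.58 and 11.1 in *xrn4-3*, and 13.2 and 13.5 in *urt1-1 xrn4-3*. The *urt1-1* libraries lay on either side of WT, both *xrn4-3* libraries above all of these, and both double mutant libraries higher still. The change was 1.62 (SE 0.40, adjusted p = 0.0013) in *urt1-1 xrn4-3* and 1.26 (SE 0.41, adjusted p = 0.049) in *xrn4-3*. The first was lost without WT replicate 2 (1.54 to 1.71 over the leave-outs). The second was lost without either WT library, *urt1-1* replicate 1, *xrn4-3* replicate 2 or either double mutant library (1.14 to 1.36).

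WRKY53 in subgroup III and WRKY33 in subgroup I were each the only raised member of their subgroup, of 8 and 10 tested. These counts are near the 10% of all loci that were raised. WRKY53 (AT4G23810, chromosome 4, 12392370 to 12393982, minus strand), a regulator of leaf senescence, was at 2.44 and 1.98 CPM in WT, 3.33 and 4.93 in *urt1-1*, 8.57 and 5.01 in *xrn4-3*, and 5.13 and 5.61 in *urt1-1 xrn4-3*. Every mutant library was above both WT libraries, and the double mutant lay within the range of *xrn4-3*. WRKY33 (AT2G38470, chromosome 2, 16108361 to 16110766, plus strand), which drives camalexin synthesis and resistance to necrotrophic fungi, was at 8.0 and 6.98 CPM in WT, 11.0 and 16.4 in *urt1-1*, 25.6 and 22.7 in *xrn4-3*, and 17.5 and 18.0 in *urt1-1 xrn4-3*. Here both *xrn4-3* libraries were above both double mutant libraries, which were above *urt1-1* and WT. The log2 fold change of WRKY53 was 1.27 (SE 0.43, adjusted p = 0.035) in *urt1-1 xrn4-3* and 1.59 (SE 0.44, adjusted p = 0.011) in *xrn4-3*. That of WRKY33 was 1.24 (SE 0.42, adjusted p = 0.033) in *urt1-1 xrn4-3* and 1.68 (SE 0.42, adjusted p = 0.0036) in *xrn4-3*. For both loci the double mutant call was lost without any 1 WT or double mutant library (1.14 to 1.44 for WRKY53, 1.15 to 1.34 for WRKY33).

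WRKY53 and WRKY33 each overlap a gene on the opposite strand, and the counting is not stated to have used strand, so reads in the overlap cannot be assigned to either gene. The overlap of WRKY53 with 3xHMG-box2 (AT4G23800) spans 341 nt and that of WRKY33 with AT2G38480 spans 26 nt. The log2 fold changes of these partners in *urt1-1 xrn4-3* were 0.37 (SE 0.39) and 0.36 (SE 0.53), and neither was called in any contrast. WRKY40 overlaps AT1G80850 by 51 nt and WRKY1 overlaps SCL21 by 166 nt in the same way. By the longer gene models of the TAIR10.1 annotation, 2 more of the raised loci overlap genes on the opposite strand, WRKY29 (AT4G23560) and WRKY69 (AT3G58720 and the long non-coding RNA gene AT3G09145), and WRKY33 also overlaps the long non-coding RNA gene AT2G08965. In the TAIR10 positions of the table, AT4G23560 and AT3G58720 do not overlap these WRKY loci. The long non-coding RNA genes were not analysed here, and reads of such overlapping transcripts cannot be told apart from those of the WRKY genes.

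In *xrn4-3*, 6 of the 50 WRKY loci (12.0%) were raised against WT, beside 4.19% of all loci tested, and none was lowered, beside 0.259%. The 6 were WRKY69, WRKY45, WRKY33, WRKY53, WRKY27 and WRKY6, with the values given above. No WRKY locus was lower at an unadjusted p under 0.05 by the likelihood ratio test, the quasi-likelihood test or DESeq2, and 15 were higher by the first. The share of all loci at this unadjusted threshold was not counted, so whether these counts differ from it is not known. The median log2 fold change over the 50 loci was 0.60, against 0.05 over all loci. Both *xrn4-3* libraries exceeded both WT libraries at 19 loci (38.0%), beside 22.9% of all loci. The 6 calls were all lost when either WT library was left out, which gave 0 called loci. The calls of WRKY53 (1.16 to 1.94 over the leave-outs) and WRKY45 (1.73 to 2.07) were also lost without *xrn4-3* replicate 1, that of WRKY69 (0.78 to 3.49) without *xrn4-3* replicate 2, and that of WRKY27 (0.99 to 1.80) without either *urt1-1* library, *xrn4-3* replicate 2 or either double mutant library. WRKY33 (1.59 to 1.79) depended on the WT libraries alone. Without *xrn4-3* replicate 2, 3 loci were called, and without replicate 1, 7. WRKY33 alone passed the quasi-likelihood test (adjusted p = 0.045, beside 1.99% of all loci), and WRKY33, WRKY45 and WRKY69 passed by DESeq2 (beside 3.32%).

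**Figure D3:**
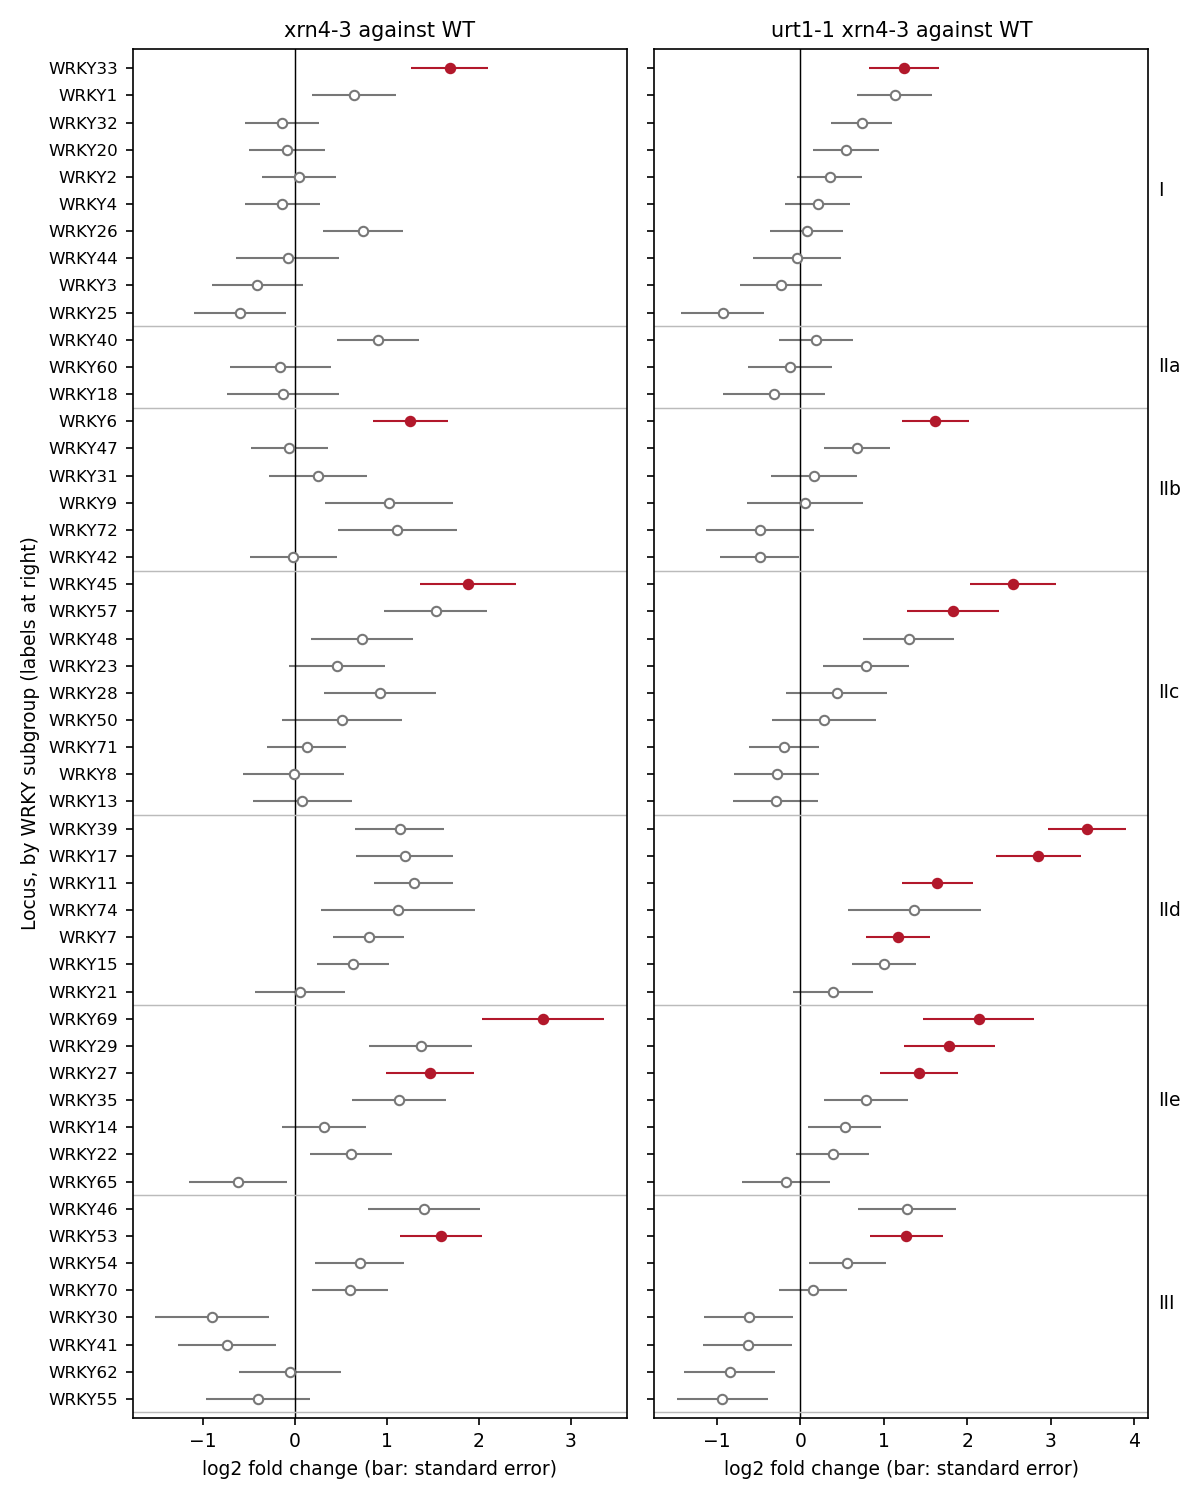
Log2 fold changes of the 50 tested WRKY loci in *xrn4-3* and in *urt1-1 xrn4-3*, each against the same WT libraries, grouped by subgroup. Points are model estimates, bars are 1 SE to each side, and filled red points were called raised. No locus was called lowered, and all 7 loci of subgroup IId lie to the right of 0 in both panels.

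In *urt1-1*, no WRKY locus was called, beside 0.0243% of all loci raised and 0.00404% lowered. The quasi-likelihood test called none, beside 0% of all loci, and DESeq2 none, beside 0.00404% raised. An unadjusted p under 0.05 by the likelihood ratio test was reached by 2 of the 50 loci. These were WRKY40 with 1.13 (SE 0.45) and WRKY33 with 0.87 (SE 0.43), and both had an adjusted p of 1. The share of all loci under this threshold was not counted, so the 2 loci are not read as changed. The median log2 fold change over the 50 loci was 0.10, against -0.004 over all loci. Above 0 were 31 of the 50, beside 12263 of the 24722 loci tested. The *urt1-1* libraries were the shallowest, so that their WRKY counts rest on 2273 and 1894 reads in all.

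The effect of losing URT1 where XRN4 was already absent was tested by *urt1-1 xrn4-3* against *xrn4-3*. WRKY39 and WRKY17, both of subgroup IId, were raised (4.0% of the 50 loci, beside 1.73% of all loci) and none was lowered (beside 0.311%). At an unadjusted p under 0.05, 1 locus was lower by each of the likelihood ratio test, the quasi-likelihood test and DESeq2. This was WRKY72, whose value rests on 1 library: it was at 20.5 and 4.75 CPM in *xrn4-3*, 4.98 and 3.40 in *urt1-1 xrn4-3*, and 3.04 and 8.65 in WT. Its log2 fold change of -1.59 (SE 0.64, adjusted p = 0.27) became -2.31 and was called lowered without *xrn4-3* replicate 2, and -0.19 without replicate 1. WRKY39 was also called by DESeq2 (beside 1.17% of all loci) and WRKY17 was not, and the quasi-likelihood test called neither (beside 0.166%).

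The effect of losing XRN4 where URT1 was already absent was tested by *urt1-1 xrn4-3* against *urt1-1*. WRKY39, WRKY17, WRKY45, WRKY6, WRKY7 and WRKY11 were raised (12.0%, beside 8.36% of all loci) and none was lowered (beside 0.918%). The log2 fold changes were 1.93 (SE 0.52) for WRKY45, 1.5 (SE 0.42) for WRKY6, 1.39 (SE 0.40) for WRKY7 and 1.24 (SE 0.43) for WRKY11. WRKY11 had the highest adjusted p of these, 0.047, and lost its call without any 1 of the WT, *urt1-1* or double mutant libraries. WRKY45 lost its call without either *urt1-1* library or double mutant replicate 1 (0.92 to 2.49), WRKY6 without *urt1-1* replicate 1 or either double mutant library (1.10 to 2.00), and WRKY7 without any 1 of the 4 *urt1-1* and double mutant libraries (1.29 to 1.48). The quasi-likelihood test called these loci apart from WRKY11 (beside 5.99% of all loci), and DESeq2 called WRKY39, WRKY17, WRKY45 and WRKY6 (beside 6.16%). At an unadjusted p under 0.05, 1 locus was lower, WRKY40 with -0.94 (SE 0.44, adjusted p = 0.19).

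Whether the 2 mutations changed WRKY small RNA by other factors together than apart was tested by the interaction. No WRKY locus was called, beside 0.089% of all loci above and 0.0324% below, nor by the quasi-likelihood test (beside 0%) or DESeq2 (beside 0.0849% above). An unadjusted p under 0.05 by the likelihood ratio test was reached by 3 of the 50 loci. The share of all loci under this threshold was not counted, so their values are given as estimates and not read as changes. WRKY39 had an interaction of 1.51 (SE 0.67, adjusted p = 0.83), that is a larger gain in the double mutant than the sum of the single changes on the log2 scale. WRKY33 had -1.31 (SE 0.59, adjusted p = 0.84) and WRKY40 -1.85 (SE 0.62, adjusted p = 0.46), that is smaller gains.

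WRKY40, WRKY18 and WRKY60 form subgroup IIa and are related repressors that act together in defence and abscisic acid responses. WRKY40 (AT1G80840) was at 5.93 and 4.27 CPM in WT, 10.8 and 11.7 in *urt1-1*, 11.6 and 7.68 in *xrn4-3*, and 7.74 and 4.12 in *urt1-1 xrn4-3*. Both single mutants lay above WT and the double mutant overlapped WT, with a log2 fold change of 0.19 (SE 0.44, 95% interval -0.68 to 1.06). WRKY18 was at 16.4 and 4.38 CPM in WT, 8.53 and 5.11 in *urt1-1*, 13.4 and 5.78 in *xrn4-3*, and 10.5 and 6.40 in *urt1-1 xrn4-3*. Replicate 1 was above replicate 2 in every genotype, and the log2 fold change in the double mutant was -0.31 (SE 0.61, 95% interval -1.5 to 0.87). WRKY60 was at 1.33 and 1.56 CPM in WT, 1.30 and 0.913 in *urt1-1*, 1.39 and 1.21 in *xrn4-3*, and 1.76 and 1.0 in *urt1-1 xrn4-3*, and its log2 fold change was -0.12 (SE 0.50, 95% interval -1.11 to 0.86). WRKY70, a node between salicylic acid and jasmonic acid signalling in subgroup III, was at 5.26 and 4.58 CPM in WT, 4.63 and 4.02 in *urt1-1*, 5.67 and 9.15 in *xrn4-3*, and 4.29 and 6.55 in *urt1-1 xrn4-3*. Its WT and double mutant libraries overlapped and its log2 fold change was 0.15 (SE 0.41, 95% interval -0.65 to 0.96). At these 4 loci the upper ends of the intervals lay under 1.17, the smallest change that was called (WRKY7), while that of WRKY22 reached 1.25. Smaller gains at these loci cannot be told apart from none.

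The WT level is also part of the fold change by which loci were called. Levels of raised and other loci in WT are therefore described, and a link between them was not tested. Among the 10 tested loci with the highest WT level per kb, 1 was raised in *urt1-1 xrn4-3*, WRKY11, beside 12 of all 50 tested. The median WT level was 1.47 CPM per kb over the 12 raised loci, with a range of 0.57 to 4.36, and 1.67 over the tested loci that were not raised. WRKY41, the highest of all, was at 74.0 and 59.1 CPM in WT, 64.1 and 46.2 in *urt1-1*, 27.4 and 52.0 in *xrn4-3*, and 56.9 and 29.2 in *urt1-1 xrn4-3*. All 4 libraries without XRN4 lay below both WT libraries, and the log2 fold changes of -0.74 (SE 0.53) in *xrn4-3* and -0.63 (SE 0.53) in *urt1-1 xrn4-3* were not called. Loci that were raised and loci that were not had the same median number of exons, 3, and median spliced lengths of 1655 and 1566 nt.

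Genes that work with WRKY factors were followed in 4 lists. The VQ motif genes, which encode short proteins that bind WRKY domains, had 12 loci tested. In *xrn4-3*, 8 of them were raised, beside 4.19% of all loci, and none lowered, with a median log2 fold change of 1.97 against 0.05 over all loci. Without *xrn4-3* replicate 2 the list had 3 raised loci and a median of 1.5, and without WT replicate 1 or 2 it had 5 or 2 raised loci. In *urt1-1 xrn4-3*, 7 were raised, beside 10% of all loci, and none lowered, with a median of 1.73 against 0.01 and with all 12 above 0. The largest change was at AT3G22160 (JAV1), a jasmonate-associated repressor of defence, with 2.07 and 1.98 CPM in WT, 1.30 and 2.01 in *urt1-1*, 9.45 and 32.1 in *xrn4-3*, and 35.9 and 28.7 in *urt1-1 xrn4-3*. All libraries without XRN4 were above all with it, and the log2 fold change was 3.99 (SE 0.58) in the double mutant and 3.36 (SE 0.58) in *xrn4-3*, where it was 2.21 and still called without replicate 2. AT1G28280 (MVQ1), a target of the MAP kinases MPK3 and MPK6, had 3.90 (SE 0.55) in the double mutant and 2.15 (SE 0.56) in *xrn4-3*. AT1G78310 (VQ9) was at 2.89 and 3.65 CPM in WT, 2.89 and 4.57 in *urt1-1*, 7.94 and 40.3 in *xrn4-3*, and 24.8 and 46.4 in *urt1-1 xrn4-3*, so that its *xrn4-3* level rested on replicate 2. It had 3.45 (SE 0.66) in the double mutant and 2.89 (SE 0.66) in *xrn4-3*, which became 1.29 (SE 0.58) and was not called without that library. CAMBP25, a calmodulin-binding protein gene, had 3.06 (SE 0.47) and 2.15 (SE 0.47), and AT1G80450 2.60 (SE 0.53) and 2.30 (SE 0.54) in the same order. Without *xrn4-3* replicate 2 the *xrn4-3* values of AT1G28280, CAMBP25 and AT1G80450 were 1.44, 1.63 and 2.10, of which the last was still called.

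Of 15 MAP kinase cascade genes, 3 were raised in *urt1-1 xrn4-3*, beside 10% of all loci, and none lowered, and the list's median of 0.09 was close to the 0.01 of all loci. The count was 1 without either WT library or *urt1-1 xrn4-3* replicate 2. MKK9, a MAP kinase kinase of ethylene and camalexin pathways, was at 9.11 and 7.29 CPM in WT, 7.52 and 9.13 in *urt1-1*, 42.1 and 126 in *xrn4-3*, and 78.0 and 73.3 in *urt1-1 xrn4-3*. The libraries without XRN4 did not overlap those with it, and the change was 3.20 (SE 0.56) in the double mutant and 3.36 (SE 0.56) in *xrn4-3*, where it was 2.36 and still called without replicate 2. MKK5 and MKK4, which act upstream of WRKY33, WRKY22 and WRKY29, had 1.28 (SE 0.42) and 1.01 (SE 0.36) in the double mutant and were not called in *xrn4-3*, where MEK1 (MKK1) was the other raised gene with 1.68 (SE 0.45), so that 2 of the 15 were raised there, beside 4.19% of all loci.

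Of 23 immune receptor and salicylic acid genes, BIK1, the receptor-associated kinase of flagellin signalling, was raised in *urt1-1 xrn4-3* with 1.21 (SE 0.39), beside 10% of all loci, none was lowered, and 11 of the 23 were above 0. The call of BIK1 was lost without any 1 of the WT and double mutant libraries. None of these genes was called in *xrn4-3*. Against *urt1-1*, BIK1 was raised by 1.26 (SE 0.42) in the double mutant, and EDS16, the isochorismate synthase gene of salicylic acid synthesis, was lowered with -1.55 (SE 0.53, adjusted p = 0.049), and both calls were lost without any 1 of the WT, *urt1-1* or double mutant libraries. Of the other genes that carry a WRKY domain, 12 were tested and none was called in any of the 5 contrasts between genotypes. The medians of that list were 0.03 in *xrn4-3* and -0.10 in *urt1-1 xrn4-3*.

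**Figure D4:**
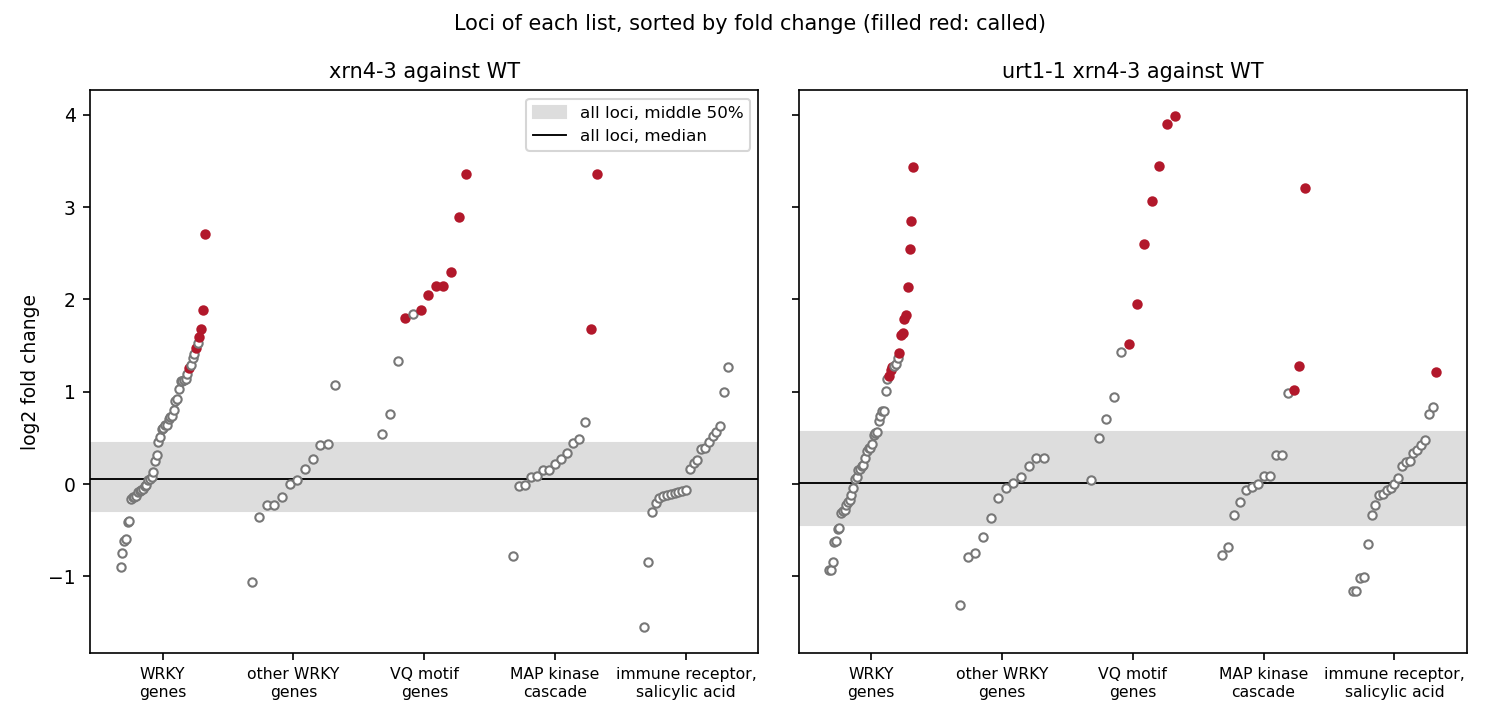
Log2 fold changes of single loci in *xrn4-3* and *urt1-1 xrn4-3* against WT, sorted within each list, for the 50 WRKY loci and the 4 lists of related genes. Filled red points were called, the black line is the median of all loci tested and the grey band their middle 50%. In both panels all 12 VQ motif genes lie above the line, while the immune receptor and salicylic acid genes scatter around it.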

How the data were processed

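The authors selected RNA of 18 to 30 nt, retained trimmed reads between 14 and 30 nt, aligned these to TAIR10 by Bowtie 1.0.0 (1 mismatch, at most 50 loci a read) and counted them on mRNA loci with bedtools 2.17.0, so a read with several best alignments may count more than once. In the deposited table, raw counts for 24859 loci stand beside CPM values that the authors had normalized, which are treated as a score and were not used. The counts were fitted with edgeR 4.0.16 in R 4.3.3 (all 8 libraries, TMM factors, filterByExpr with a count minimum of 10, likelihood ratio test), a method tested on simulated data first and chosen because the study used edgeR's negative binomial model. The quasi-likelihood test, DESeq2 1.42.0, RLE factors, plain library totals, reads mapped to the genome as totals, no filter, at least 10 reads in every library, a fit of the compared genotypes alone, a replicate block and the removal of each library were tried as alternatives. Named loci were all members called in a contrast between genotypes and 10 members of known function, and list genes only where called, at most 5 a list. The members and lists were chosen with earlier results of these data known. WRKY72, WRKY41, WRKY65, WRKY42 and the members of subgroup IId that were not called were named after their values were seen. Gene models and sequences came from RefSeq TAIR10.1, matched by locus code for all 55 members, with Biopython 1.88, and locus positions are those of the table. The 95% intervals are the estimate plus and minus 1.96 SE. Figures were drawn with matplotlib 3.10.9.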

Additional observations from a re-analysis of the deposited data

How the results depend on the processing

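The direction of every WRKY call was kept under all alternatives, while the number of calls was not. In *urt1-1 xrn4-3* against WT, 12 loci were called raised, beside 5 by the quasi-likelihood test, 7 by DESeq2, 10 with RLE size factors, 17 with genome-mapped reads as library size and 4 to 15 when single libraries were left out. In *xrn4-3* the 6 calls became 1 by the quasi-likelihood test, 3 by DESeq2 and 0 to 7 when single libraries were left out. Against *urt1-1* the 6 calls of the double mutant became 15 with genome-mapped reads as library size and 1 to 8 when single libraries were left out. Against *xrn4-3* the 2 calls became 0 by the quasi-likelihood test, 1 by DESeq2, 1 with library size only, 1 with only the genotypes compared and 1 to 2 when single libraries were left out, and the count of lowered loci was 0 to 1. Scaling by genome-mapped reads shifted the median of all loci in *urt1-1 xrn4-3* against WT from 0.01 to 0.74, and calls under it are not relative to that shift. Among named loci that were not called, the double mutant change of WRKY40 was -0.41 to 0.59 when single libraries were left out, that of WRKY18 -0.97 to 0.94, that of WRKY60 -0.62 to 0.29 and that of WRKY70 -0.20 to 0.31, and with genome-mapped reads WRKY18 had 0.52 and WRKY60 0.59. The cause of these changes was not tested. Replicate numbers are shared between genotypes, but the labels tie them to no batch, and deviations of same-numbered libraries correlated between 0.036 and 0.36 over loci. With a replicate block, 15 loci were called raised in *urt1-1 xrn4-3* and 8 in *xrn4-3* against WT, 7 against *urt1-1*, 2 against *xrn4-3*, and 0 in *urt1-1* and in the interaction. Many WRKY loci held few reads a library, from 1 read upwards at the tested loci, which limits what 2 replicates can show. A library left out leaves 1 in its genotype, which is then assumed to vary like the others.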

Other observations

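At some loci the 2 replicate numbers differed in the same direction in all genotypes. WRKY28 was at 4.30 and 1.98 CPM in WT, 7.38 and 2.92 in *urt1-1*, 9.20 and 2.94 in *xrn4-3*, and 5.06 and 3.58 in *urt1-1 xrn4-3*, so that replicate 1 was the higher library each time, as it was at WRKY18. WRKY23, a gene of root development, showed the opposite order with 2.37 and 6.04 CPM in WT, 2.46 and 6.03 in *urt1-1*, 4.92 and 6.47 in *xrn4-3*, and 5.98 and 8.34 in *urt1-1 xrn4-3*. These loci were picked after their values were seen.

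WRKY61 and WRKY12, which were not tested, had 3 to 29 and 2 to 31 reads a library. WRKY12, known from the pith of stems, was at 0.815 and 1.46 CPM in WT, 0.579 and 1.10 in *urt1-1*, 0.252 and 0.432 in *xrn4-3*, and 0.843 and 0.94 in *urt1-1 xrn4-3*, with both *xrn4-3* libraries as the lowest. At WRKY61 all 8 libraries lay between 0.37 and 1.38 CPM.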
